A study of Homo sapiens with 4 samples.

Results

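Genes of the pentose phosphate pathway and of other enzymes that supply NADPH were followed in ES2 cells, an established human ovarian cancer cell line, after exposure to liquiritigenin (Liq), a flavanone from licorice root that binds ERβ. The 9 genes were chosen by name, for their enzymatic role, from the 23228 genes in the count tables. All 9 passed the filter on low counts. This choice, and that of the other gene lists below, was made with earlier results of these data known. Numbers of genes called in a list, set beside the share of all genes, are therefore descriptions. The 9 genes are PGLS and PGD of the oxidative branch, RPIA, RPE, TKT and TALDO1 of the non-oxidative branch, and the NADP-linked dehydrogenases ME1, IDH1 and IDH2. The 2 vehicle samples and the 2 Liq samples were grown in RPMI without phenol red and with charcoal-treated serum, and Liq was given at 100 μM for 24 h. No genotype or transgene separates the groups. The labels do not say whether samples of a group came from separate cultures. For single genes, a p-value here therefore rests on the spread between these samples, with the variance pooled over genes.

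The pentose phosphate pathway branches off glycolysis at glucose-6-phosphate. Its oxidative branch yields NADPH and a pentose phosphate, and its non-oxidative branch passes carbon reversibly between pentose phosphates and glycolytic intermediates and so serves ribose supply. NADPH is the reductant used by thioredoxin reductase, glutathione reductase and the enzymes of lipid synthesis, and malic enzyme and NADP-linked isocitrate dehydrogenases are further sources of it. Several of these genes are known targets of NRF2, a transcription factor of the oxidative stress response.

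Reads counted on genes numbered 34573053 to 48933893 per library, and 3 counts corresponded to 0.0598 to 0.0844 CPM (gene counts relative to a library size scaled by TMM factors). Libraries of the same group differed less, with a chi-square per degree of freedom of 6.49 and 11.6, than libraries of different groups, with 60.5 to 74.7. As a check of the cell line, KRT7, KRT8, KRT18 and VIM were expressed, PAX8 was near 1.2 CPM in vehicle, and EPCAM, CDH1, KRT19 and MUC16 had 0 to 3 counts per library. ESR2, which encodes ERβ, had 4 and 7 counts in vehicle and 5 and 14 counts in Liq. Of 9 leukocyte and endothelial markers only CDH5 and KDR passed the filter on low counts, and the list summed to 53.2 to 55.9 CPM in vehicle and 46.2 to 49.9 CPM in Liq, nearly all of it CDH5. KRT7 was called higher, PAX8, WT1, KRT18, VIM and KDR were called lower, and their part in the results was not tested.

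With Liq, 5 of the genes were called higher, 1 was called lower and 3 did not pass the test. PGD rose by 56.5%, ME1 by 60.6%, IDH1 by 44.2%, TKT by 38.7% and TALDO1 by 24.5%, whereas RPIA fell by 17.4%. PGLS, RPE and IDH2 had adjusted p-values above 0.05. These calls come from edgeR's quasi-likelihood test over 13546 genes with Benjamini-Hochberg adjustment, in which 12.6% of all genes were called higher and 11.3% lower. By at least 1.5-fold, 2 of the 9 genes, PGD and ME1, were called higher, against 4.29% of all genes. In that class 0 of the 9 were called lower, against 2.16% of all genes, and the number was also 0 at an unadjusted p under 0.05 and with DESeq2. The median log2 fold change was 0.32 over the 9 genes and 0.0062 over all genes. Because whole cultures were lysed, a change in the share of cells that transcribe a gene and a change in its RNA per cell cannot be told apart.

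**Figure D1:**
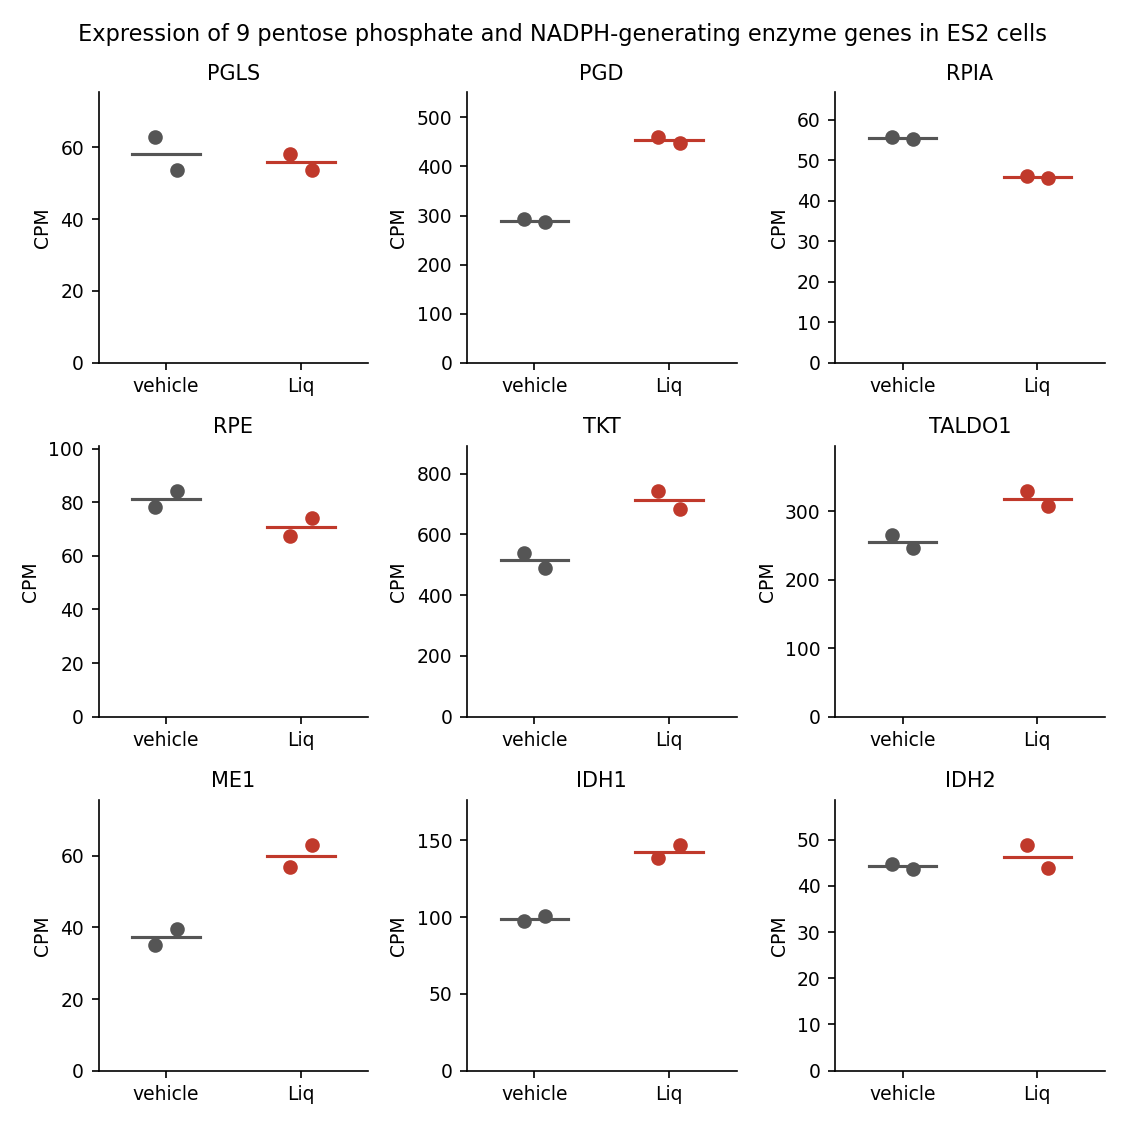
Expression of each of the 9 genes in CPM (y axis, from 0) in the 2 vehicle and 2 Liq libraries. Dots are libraries, replicate 1 to the left, and bars are group means. PGD, TKT, TALDO1, ME1 and IDH1 lie higher in both Liq libraries, RPIA and RPE lie lower, and PGLS and IDH2 overlap. With 2 libraries a group, groups can lie apart without a call, as for PRPS1 and NNT (edgeR adjusted p = 0.593 and 0.647). The smallest two-sided exact permutation p that 2 samples against 2 can give is 0.33, so groups that lie apart are no evidence by themselves. The share of all genes whose groups lie apart was not computed.

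Because PGD, TKT, TALDO1, ME1 and IDH1 moved in the same direction, their promoters were searched for the core of the antioxidant response element, the site bound by NRF2 with small MAF proteins. The windows were those of RefSeq on GRCh38.p14, from 250 bases before to 50 bases after each annotated start, with 10 windows for the 9 genes since IDH1 has 2 starts. The core was spelled TGACNNNGC and was searched on both strands. It was present in the windows of 4 of the 9 genes (PGD, ME1, IDH1 and RPE), in 13.3% of all 35116 windows, and in the windows of 19.5% of the 9268 tested genes that matched a window by symbol. The stretches around the matches upstream of the start are shown because they let the genes that rose be set beside RPE, which did not. Each has 25 bases on either side, the match is in capitals, and all are read along the strand of the gene.
ME1: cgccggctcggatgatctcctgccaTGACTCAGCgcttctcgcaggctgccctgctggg
IDH1: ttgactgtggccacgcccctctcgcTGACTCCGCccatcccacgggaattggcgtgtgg
PGD: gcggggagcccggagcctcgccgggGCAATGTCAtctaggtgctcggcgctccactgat
RPE: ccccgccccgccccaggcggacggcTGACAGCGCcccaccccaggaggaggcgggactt
On GRCh38.p14 the stretches lie at chr6:83431155-83431213 (minus strand) for ME1, chr2:208255181-208255239 (minus strand) for IDH1, chr1:10398838-10398896 (plus strand) for PGD and chr2:210002462-210002520 (plus strand) for RPE. The match began 137 bases before the start in ME1, 143 in IDH1, 201 in PGD and 151 in RPE. In PGD it lies on the opposite strand, and the ME1 match TGACTCAGC also holds TGACTCA, the AP-1 consensus. ME1 had a further match, GCACCGTCA on the opposite strand, from base 12 after the start. Of the 2 windows of IDH1, 1 had no match, and neither did the windows of TKT, TALDO1, PGLS, RPIA and IDH2. The only window of IDH2 was chr15:90100572-90100871, so a start of IDH2 elsewhere was not searched. The matches are descriptions of sequence, and binding was not measured.

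In the oxidative branch PGD rose and PGLS did not pass the test. PGD (chromosome 1 from 10458649 to 10480568, GRCh37, GENCODE annotation) encodes 6-phosphogluconate dehydrogenase, which oxidizes 6-phosphogluconate and reduces NADP. It had 292 and 287 CPM in vehicle and 459.9 and 447 CPM in Liq. Both Liq libraries thus lay far above both vehicle libraries, and the means were 289.8 ± 3.3 CPM and 453 ± 9 CPM (SD, n = 2). On the log2 scale it rose by 0.65 (SE 0.065, edgeR adjusted p = 2.87e-08).

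PGLS (chromosome 19 from 17622445 to 17632097) encodes 6-phosphogluconolactonase, which hydrolyses the lactone just upstream of PGD. It had 62.8 and 53.6 CPM in vehicle and 58.2 and 53.6 CPM in Liq, so the groups overlapped. Its log2 fold change of -0.06 did not pass the test (edgeR adjusted p = 0.656), and the 95% confidence interval of the fold change ran from 0.847 to 1.08. In the annotation 23.9% of the bases of its canonical transcript are shared with PGLS-DT on the other strand, and the strand setting of the counting is not stated. Within each library PGD had 4.65 and 5.36 reads per PGLS read in vehicle and 7.91 and 8.34 in Liq, a ratio that does not depend on library size.

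In the non-oxidative branch both transferase genes rose, RPIA fell and RPE did not pass the test. TKT (chromosome 3 from 53258728 to 53290068) encodes transketolase, which moves a glycolaldehyde unit between sugar phosphates. It had 539 and 489.8 CPM in vehicle and 743 and 685 CPM in Liq. The lowest Liq library lay above the highest vehicle library, and the log2 fold change was 0.47 (SE 0.066, edgeR adjusted p = 7.33e-06). TALDO1 (chromosome 11 from 747415 to 765012) encodes transaldolase, which moves a dihydroxyacetone unit. It had 264 and 246 CPM in vehicle and 329 and 307 CPM in Liq, again without overlap. Its log2 fold change of 0.32 was the smallest of the 5 increases (SE 0.069, edgeR adjusted p = 0.00139), and without vehicle replicate 2 it was 0.27 with an adjusted p of 0.087.

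RPIA (chromosome 2 from 88991191 to 89050446) encodes ribose-5-phosphate isomerase, which turns ribulose 5-phosphate into the ribose precursor of nucleotides. It had 55.7 and 55.2 CPM in vehicle and 46.1 and 45.6 CPM in Liq, and both groups were tight. The log2 fold change was -0.28 (SE 0.081, edgeR adjusted p = 0.0142), and the adjusted p was 0.191 without vehicle replicate 1 and 0.147 without vehicle replicate 2. RPE (chromosome 2 from 210867289 to 210886984) encodes ribulose-5-phosphate epimerase, which acts on the same substrate. It had 78.2 and 84.1 CPM in vehicle and 67.3 and 74.1 CPM in Liq. The groups did not overlap, but the log2 fold change of -0.20 did not pass the test (SE 0.080, edgeR adjusted p = 0.0725), and it was -0.27 with an adjusted p of 0.00852 without Liq replicate 2. It was -0.13 with an adjusted p of 0.262 without Liq replicate 1, and -0.15 with one of 0.512 without vehicle replicate 2. The annotation names 6 pseudogenes of RPE, and 1 each of PGD and RPIA. In RPE 26.4% of the bases of the canonical transcript are also shared with KANSL1L on the other strand, so its count is uncertain. The effect of pseudogenes on the counts of these genes was not tested.

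Summed over TKT and TALDO1 the level was 804 and 736 CPM in vehicle and 1072 and 992 CPM in Liq, while RPIA and RPE together gave 134 and 139 CPM and then 113 and 119.8 CPM. TKT had 9.67 and 8.87 reads per RPIA read in vehicle and 16.1 and 15 in Liq. The same ratio for TALDO1 was 4.74 and 4.46 in vehicle and 7.14 and 6.73 in Liq. Since both transferase genes were called higher and RPIA lower in these libraries, the ratios had to rise and add no further evidence.

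**Figure D2:**
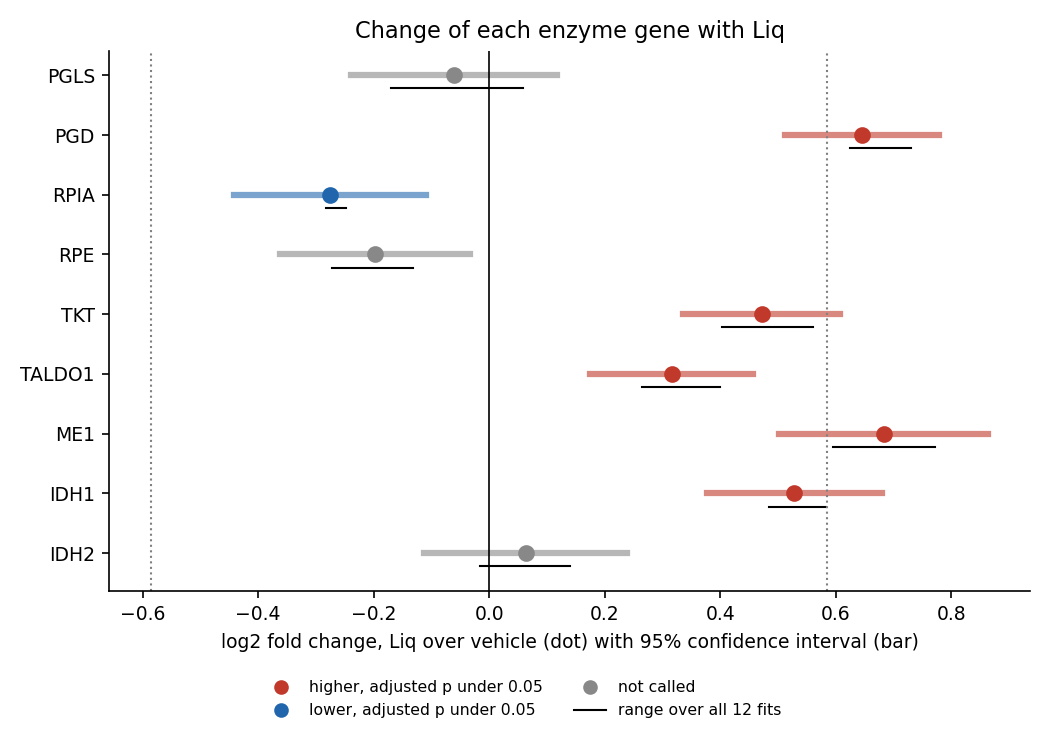
Log2 fold change of each gene, Liq over vehicle (x axis), with its 95% confidence interval as a thick bar and, as a thin black line, the range over 12 fits (the reported one and 11 others). Dotted lines mark a 1.5-fold change; the intervals of PGD, TKT, TALDO1, ME1 and IDH1 lie above 0, and those of PGLS and IDH2 span it.

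Of the other NADPH producers among the 9 genes, ME1 and IDH1 rose and IDH2 did not pass the test. A pattern by cell compartment was not tested. ME1 (chromosome 6 from 83920121 to 84140770) encodes cytosolic malic enzyme, which turns malate into pyruvate and reduces NADP. It had 35.1 and 39.6 CPM in vehicle and 56.8 and 63.0 CPM in Liq, with no overlap. Its log2 fold change of 0.68 was the largest of the 9 genes (SE 0.088, edgeR adjusted p = 1.98e-06). IDH1 (chromosome 2 from 209100953 to 209130798) encodes the NADP-linked isocitrate dehydrogenase of cytosol and peroxisomes. It had 97.5 and 100.4 CPM in vehicle and 138 and 147 CPM in Liq, which again left the groups apart. The log2 fold change was 0.53 (SE 0.074, edgeR adjusted p = 6.99e-06).

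IDH2 (chromosome 15 from 90626277 to 90645709) encodes the mitochondrial NADP-linked isocitrate dehydrogenase. It had 44.8 and 43.7 CPM in vehicle and 48.8 and 43.8 CPM in Liq, so the groups overlapped. The log2 fold change was 0.06 (edgeR adjusted p = 0.635), and the 95% confidence interval of the fold change, 0.925 to 1.18, did not reach that of IDH1, 1.30 to 1.60. IDH1 had 2.18 and 2.30 reads per IDH2 read in vehicle and 2.84 and 3.35 in Liq, a rise of the ratio by 0.46 on the log2 scale. A like comparison of ME1 with ME2, the mitochondrial malic enzyme that works mainly with NAD, gave 0.452 and 0.506 in vehicle and 0.700 and 0.746 in Liq, or 0.60 on the log2 scale. ME2 itself had a log2 fold change of 0.09 that did not pass the test (edgeR adjusted p = 0.437). For both ratios the two-sided exact permutation p was 0.33, the smallest that 2 samples against 2 can give.

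**Figure D3:**
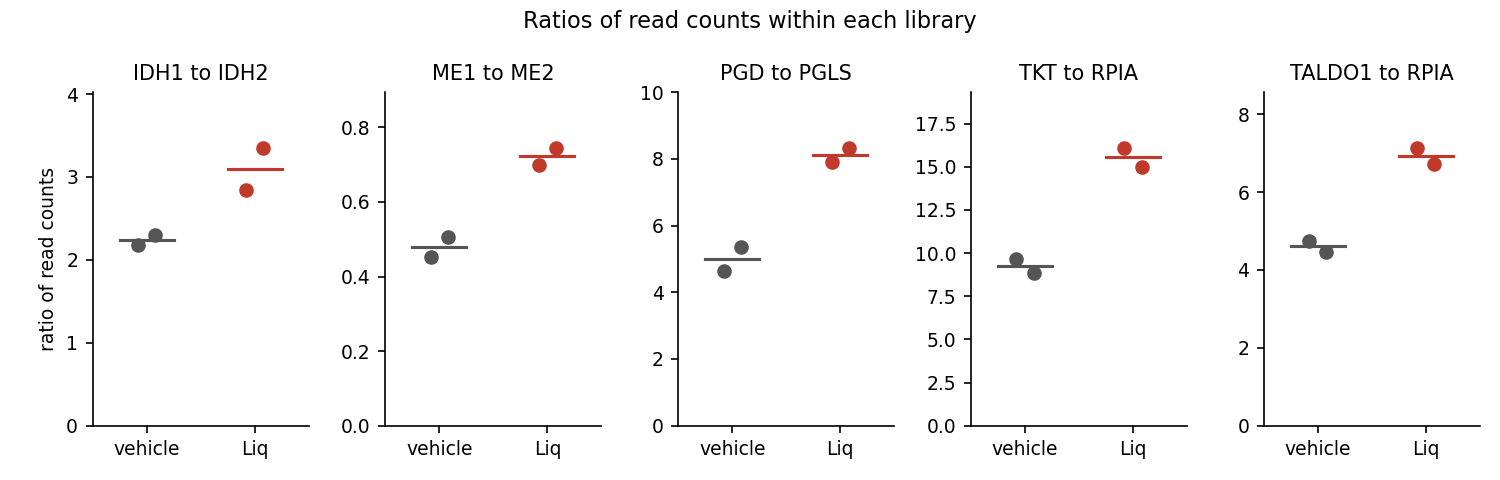
Ratio of the read counts of 2 genes within each library (y axis, from 0) for 5 gene pairs, in the 2 vehicle and 2 Liq libraries, with bars at group means. In each pair both Liq libraries lie above both vehicle libraries, as for PGD to PGLS with 4.65 and 5.36 against 7.91 and 8.34. The pairs with PGD, TKT and TALDO1 restate the changes of single genes and were not tested. The ratios of IDH1 to IDH2 and ME1 to ME2 add little to the rises of IDH1 and ME1, since IDH2 and ME2 did not pass the test. Their two-sided exact permutation p of 0.33 is the smallest that 2 samples against 2 can give.

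Levels of different genes were compared as RPKM, that is CPM per kilobase of the canonical transcript in the GENCODE annotation of GRCh37. In vehicle the order of the mean RPKM was TALDO1 (213), TKT (172), PGD (128), PGLS (57.8), IDH1 (42.7), RPIA (30.6), RPE (25.5), IDH2 (16.6) and ME1 (11.2), and no neighbours in this order overlapped between libraries. In Liq the order of the first 3 genes was the same, but IDH1 at 61.5 RPKM lay above PGLS at 55.5 RPKM. ME1 at 17.9 RPKM and IDH2 at 17.4 RPKM overlapped in Liq, with 17.0 and 18.9 RPKM for ME1 and 18.4 and 16.5 RPKM for IDH2. The order depends on the length used. With the union of all annotated exons, TALDO1 and PGD were at 87.9 and 87.0 RPKM in vehicle, TKT at 54.1 RPKM and PGLS at 20.5 RPKM. All 9 genes together took 1470.0 and 1400.4 CPM in vehicle and 1947 and 1866 CPM in Liq.

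**Figure D4:**
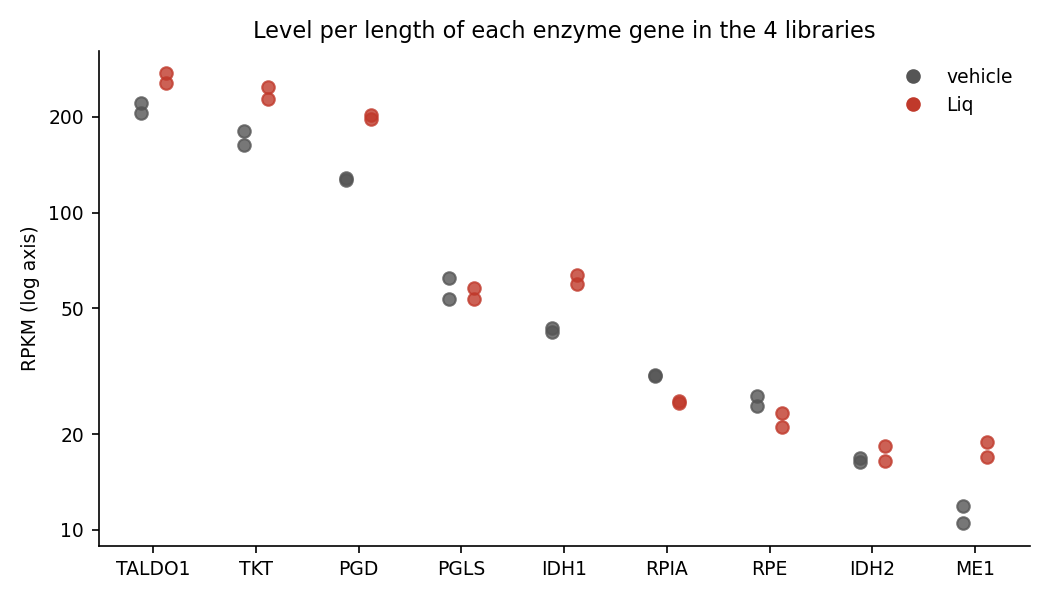
Level of each gene in RPKM (y axis, log scale), ordered by the vehicle mean, with 1 dot per library for vehicle and Liq. ME1, the lowest gene in vehicle at 11.2 RPKM, is at 17.9 RPKM in Liq, where it overlaps IDH2.

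Most other genes of the pathway did not pass the test. Of 8 tested among 11 other pentose phosphate genes, 1 was called higher and 2 lower, against 12.6% and 11.3% of all genes. Their median log2 fold change was -0.10. PGM2, a phosphopentomutase, fell, with vehicle at 134 ± 8 CPM and Liq at 99.5 ± 3.0 CPM (SD, n = 2), which was -0.43 on the log2 scale (edgeR adjusted p = 0.000129). H6PD, which runs the oxidative steps inside the endoplasmic reticulum, went from 143 ± 6 CPM in vehicle down to 112 ± 1 CPM in Liq (SD, n = 2). Its log2 fold change was -0.36 (edgeR adjusted p = 0.000789). RBKS, a ribokinase, rose by 0.47 on the log2 scale, and PRPS2, which makes phosphoribosyl pyrophosphate, had a log2 fold change of -0.16 (edgeR adjusted p = 0.173). Without vehicle replicate 1 the adjusted p of H6PD was 0.0693, and without vehicle replicate 2 that of RBKS was 0.0984. The transketolase-like genes TKTL1 and TKTL2 had 0 to 3 counts per library and were not tested.

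Among 10 tested genes of other NADPH and NADP supply, 2 were called higher, against 12.6% of all genes. The other 8 did not pass the test, and the median log2 fold change of the 10 was -0.08. ALDH1L2, a mitochondrial folate enzyme that yields NADPH, had a log2 fold change of 0.42 (SE 0.080, edgeR adjusted p = 0.000346). NADK2, the mitochondrial NAD kinase, listed under the older symbol NADKD1, rose by 0.42 as well (SE 0.098, edgeR adjusted p = 0.00242), and its value was 0.25 without Liq replicate 2 and 0.56 without Liq replicate 1. MTHFD1 and MTHFD2L, folate dehydrogenases of cytosol and mitochondria, had log2 fold changes of -0.17 and -0.30 that did not pass the test (edgeR adjusted p = 0.0766 and 0.110), although MTHFD2L was called with loess offsets, at -0.42 and an adjusted p of 0.0274. The subunits of the NAD-linked isocitrate dehydrogenase of the citric acid cycle were lower, with log2 fold changes of -0.28 for IDH3G, -0.22 for IDH3A and -0.22 for IDH3B (edgeR adjusted p = 0.0246, 0.0367 and 0.0375). These 3 calls were lost with upper-quartile scaling and when loess offsets were used. Without vehicle replicate 1 there were 0 of them, and without vehicle replicate 2 or Liq replicate 2 there was 1.

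Among genes whose products use NADPH, more were called higher than lower. Of 22 tested, 13 were called higher and 2 lower, against 12.6% and 11.3% of all genes. The median log2 fold change was 0.31, close to that of the 9 enzyme genes. TXNRD1 (thioredoxin reductase of the cytosol) had a log2 fold change of 1.00, DHCR7 (last step of cholesterol synthesis) one of 0.81, GSR (glutathione reductase) one of 0.53 and FASN (fatty acid synthase) one of 0.44, and all 4 were called higher. The 2 genes called lower, named after their values were seen, were TXNRD2, the mitochondrial thioredoxin reductase, with a log2 fold change of -0.54, and ALDH18A1, of proline synthesis, with one of -0.19. Without vehicle replicate 2 the number called higher was 7. The number called lower was 1 with upper-quartile scaling, with loess offsets, and without vehicle replicate 1, vehicle replicate 2 or Liq replicate 1.

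Glycolysis, which shares glucose-6-phosphate with the pathway, had 2 genes called higher and 8 lower among 23 tested. Over all genes 12.6% were called higher and 11.3% lower. The median log2 fold change of the glycolysis genes was -0.15. LDHA, lactate dehydrogenase, fell by 0.39 on the log2 scale, with vehicle at 890.1 ± 0.9 CPM and Liq at 678 ± 25 CPM (SD, n = 2, edgeR adjusted p = 2.68e-05), and GAPDH, of the same pathway, had a log2 fold change of -0.26 (edgeR adjusted p = 0.0015). ALDOC, an aldolase, and PFKFB2, which sets the level of fructose 2,6-bisphosphate, rose by 0.81 and 0.40 on the log2 scale. With loess offsets 2 glycolysis genes were called lower and 4 higher, and without vehicle replicate 1 the numbers were 1 and 1, with GAPDH at an adjusted p of 0.0603 and PFKFB2 at 0.0525. Without vehicle replicate 2 there were 5 called lower and 1 higher. A list of 12 NRF2-linked thiol and quinone genes shares TXNRD1 and GSR with the users of NADPH, and its median log2 fold change was 0.81. Of the 12, 8 were called higher, against 12.6% of all genes, and 7 of them by at least 1.5-fold, against 4.29%. Those with the smallest p-values were TXNRD1, SLC7A11 (log2 fold change 1.36), ABCC3 (1.53) and GCLM (0.94). The 4 genes of the list that did not pass the test, named after their values were seen, were GCLC (0.22), SRXN1 (0.18), TXN (-0.09) and PRDX1 (-0.16).

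**Figure D5:**
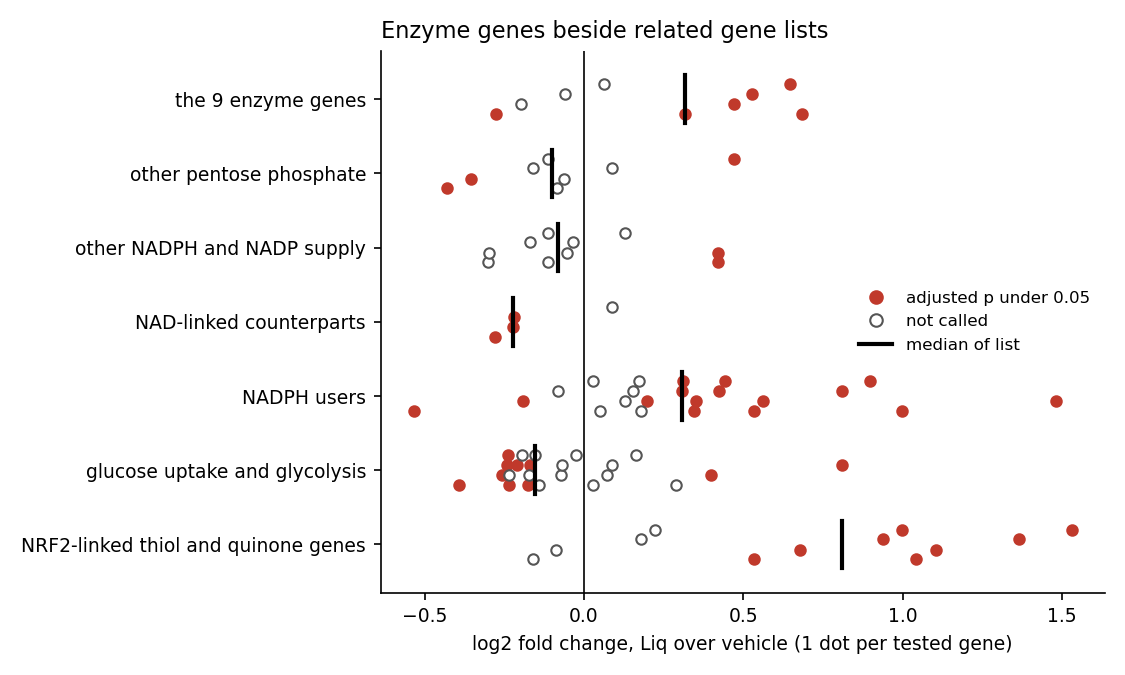
Log2 fold change, Liq over vehicle (x axis), of each tested gene in the 9 enzyme genes and 6 related lists (rows). Filled dots passed an adjusted p of 0.05, open dots did not, and black bars are list medians, from -0.22 for the NAD-linked counterparts to 0.81 for the NRF2-linked genes.

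The genes whose pattern over the 4 libraries lay nearest to the mean pattern of PGD, TKT, TALDO1, ME1 and IDH1, among 9545 genes with a mean of at least 10 CPM, were FAM101B, GPCPD1, PLS1, TCTEX1D2 and CREB3L4. The Euclidean distance of their centred log2 CPM was 0.027 to 0.035, against 0.073 for IDH1 and 0.232 for TALDO1. Their log2 fold changes were 0.50 to 0.53. Because they were picked as nearest to that mean pattern, small distances and similar fold changes follow from the choice. No function or shared control is read from them.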

How the data were processed

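Total RNA of ES2 cells was sequenced as single-end reads from TruSeq libraries. Per the labels, the authors aligned reads to hg19 (GRCh37) with TopHat2 2.0.8b and counted them with HTSeq. The annotation release and strand setting are not given in the sources used here. The deposited values are raw counts per gene, neither normalized nor pooled, and reads that align to several places are left out, 35.6% to 36.2% of those tallied. The tally lines stayed out of library sizes and tests. Groups and replicate numbers came from sample titles and the dose from the study's methods.

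From these counts, CPM, RPKM and tests were computed with edgeR 4.0.16 under R 4.3.3 (filterByExpr set to 10 counts and 15 in total, TMM, glmQLFit, glmQLFTest, no block), with p-values adjusted over 13546 genes. A gene was called at an adjusted p under 0.05. The SE is the absolute log2 fold change divided by the square root of F. A floor of 3 counts, set by choice, corresponds to 0.0598 to 0.0844 CPM, and counting error alone is small for the 9 genes. Scripts were tested on simulated counts. Alternatives were other normalizations, filters, DESeq2 1.42.0, the replicate number as a block and each sample left out. The 9 genes, the other lists and the tests were chosen with earlier results of these data known. Genes named from the other lists are up to 4 with the smallest p in each.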

Additional observations from a re-analysis of the deposited data

How the results depend on the processing

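Of the 9 genes, 5 were called higher in 11 of the 12 alternatives, and 4 without vehicle replicate 2, when TALDO1 was not called. PGD, TKT, ME1 and IDH1 were called in every fit. The number called lower was 1 (RPIA) and moved to 2 with the replicate number as a block and with an unadjusted p under 0.05, and it ranged from 0 to 2 over the fits that each left out 1 sample. With the replicate block RPE joined RPIA, at a log2 fold change of -0.20 and an adjusted p of 0.00652. MTHFD1 was called lower with the block as well, at -0.17 and an adjusted p of 0.00831. The replicate numbers are only numbers in the labels, same-numbered samples deviated together only weakly (correlation 0.129 over genes, 2 pairs), and the block raised the genes called from 3245 to 4795. That total was 4890 at an unadjusted p and ranged from 1413 to 3780 with 1 sample left out, lowest without a vehicle sample. PGLS and IDH2, which were not called, changed sign, with log2 fold changes of -0.17 to 0.058 and -0.016 to 0.14 over those fits. The ratio of IDH1 to IDH2 was higher in Liq by 0.34 to 0.58 on the log2 scale, and that of ME1 to ME2 by 0.51 to 0.68, with 1 sample left out. Changes of scaling moved the median of all genes to between -0.0012 and 0.033. The cause of the lost calls was not tested. With 2 samples a group, each test leans on the variance pooled over genes.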
